A study of Salvia miltiorrhiza with 5 samples.

Results

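miR167 and miR160 are plant miRNA families known for acting on auxin response factors, and their reads were described here over root, stem, leaf and flower of *Salvia miltiorrhiza*, a medicinal sage. Members were all entries of the miRNA table whose name holds miR167 or miR160 with no further digit after it. The rule found 44 of 650 entries, which carry 29 of 488 names and 9 of 241 distinct sequences, with 28 names and 8 sequences for miR167 and 1 name and 1 sequence for miR160. The plants had grown in the field for 8 months and were in flower, all were of 1 species with no treatment or mutation named in the labels, and 1 small RNA library was made from each of the 4 tissues. A degradome library, which captures the ends of cut transcripts, was made from the mixed tissues. Each tissue is therefore 1 library with no replicate. Every interval below covers counting error only, and every test compares libraries rather than tissues.

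Auxin response factors are transcription factors that bind auxin-responsive promoters and switch the genes behind them on or off. In Arabidopsis, miR167 guides the cutting of the transcripts of ARF6 and ARF8, activators needed for flower maturation and adventitious rooting, and miR160 guides the cutting of ARF10, ARF16 and ARF17, repressors that act in the root cap, leaf and embryo. A miRNA is cut from a hairpin precursor whose arms are named 5p and 3p, and in both families the 5p strand is the guide that pairs with the target.

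To show how the miR167 sequences differ, all member sequences are printed here as DNA letters from the deposited miRNA table, 5′ to 3′. The seed (bases 2 to 8, important for pairing with a target) is in capitals. The dominant miR167 sequence carried the name dpr-miR167a, after foxglove, and the miR160 sequence the name nta-miR160a, after tobacco. The other sequences are given under the first of their names in alphabetical order.
dpr-miR167a: tGAAGCTGccagcatgatcta
ppt-miR167_1ss1GT: tGAAGCTGccagcatgatcct
bna-miR167d_R+2_1ss19CA: tGAAGCTGccagcatgatatgt
aly-miR167a-5p_R+3_1ss21AT: tGAAGCTGccagcatgatcttatt
aly-miR167d-5p_L-2R+1_1ss22GT: aAGCTGCCagcatgatctgtt
aly-miR167c-5p_R-3_1ss13AT: tAAGCTGCcagcttgatc
ptc-miR167f-3p: aGATCATGtggcagtttcacc
ahy-miR167-3p_L+3: aTCAGATCatgtggcagtttcacc
nta-miR160a: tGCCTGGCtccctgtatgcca
The first 4 miR167 lines share the seed GAAGCTG and differ from each other only from base 19 on. The suffixes are the authors' notation for bases lost or gained at the left (L) or right (R) end and for substitutions (ss) relative to the miRBase entry. The sequences of the 3p arm come from the opposite strand of the hairpin and have seeds of their own.

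Of the miR167 reads, 99.4% belonged to the single sequence named dpr-miR167a, and the sequences with the seed GAAGCTG held 99.5%. dpr-miR167a had 1161.5 reads in flower, 1759 in leaf, 964 in root and 389 in stem. Leaf was highest and stem lowest. It was the 11th most abundant of the 241 sequences over all libraries. Its place was 6 in flower, 4 in leaf, 14 in root and 15 in stem.

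The other 7 miR167 sequences together held 26.4 reads, or 0.614% of the family. None of them passed the test over the 4 libraries. The 5 minor sequences of the 5p arm summed to 2.39 reads in flower, 3.79 in leaf, 0.893 in root and 2 in stem, so in no library did they add more than a few reads to dpr-miR167a. Counted from base 1 of dpr-miR167a, the form with seed AGCTGCC starts 2 bases further in and carries the substitution A21G. This shifted form had 24 entries and 13 names, yet it summed to 0.857 reads in flower, 1.66 in leaf, 0.857 in root and 0 in stem. In flower each of its entries held 0.0357 reads, the value of 1 read divided over 28 entries. The 24 nt form that ends 3 bases later, with A21T, had 9 entries and 7 names and summed to 0.0357 reads in flower, 0.0690 in leaf, 0.0357 in root and 1 in stem. In stem, 1 read had been divided evenly over its 9 entries. The many names of miR167 in the table thus stood for few reads: 42 of the 44 entries were in the authors' lowest expression class, and dpr-miR167a and nta-miR160a were in the middle class.

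The 3 remaining 5p forms were at the level of single reads. The form with T20C and A21T, ppt-miR167_1ss1GT, had 0.5 reads in flower, 1 in leaf, 0 in root and 1 in stem. The 22 nt form with C19A and A21G, bna-miR167d_R+2_1ss19CA, had 0 reads in root and stem, 0.0667 in leaf and 1 in flower. The 18 nt form that starts 1 base further in, with G2T and A14T, was listed in leaf alone with 1 read. As a one-sided limit, a count of 0 allows up to 3 reads, so a difference of these forms between libraries was not detectable at this depth.

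**Figure D1:**
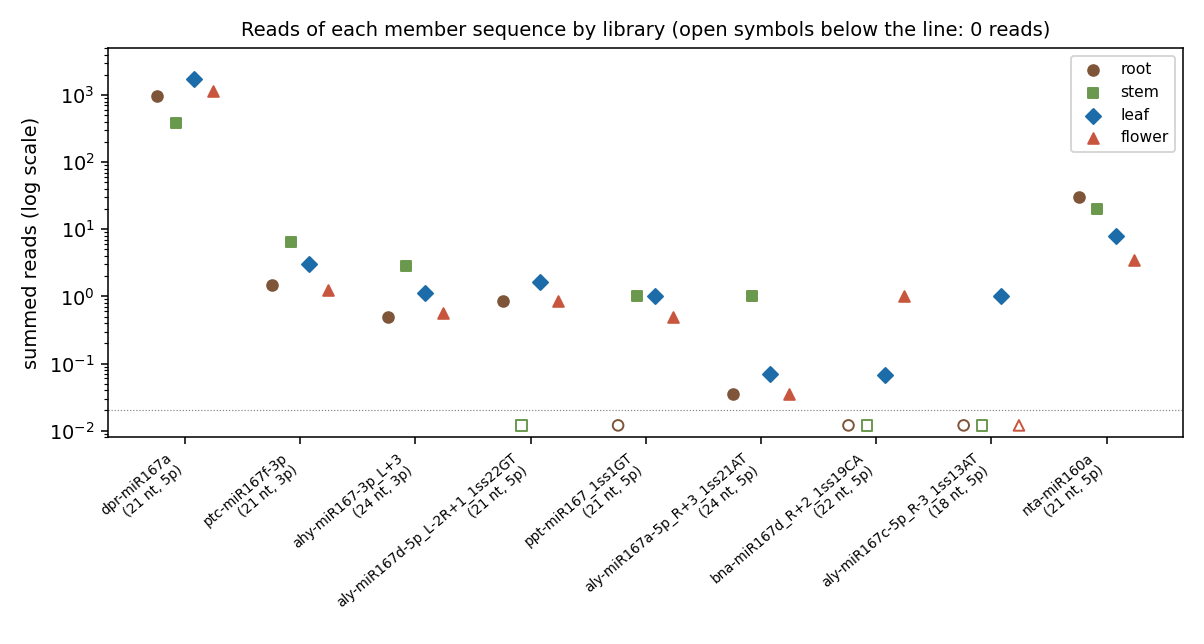
Summed reads (log scale) of each of the 9 member sequences in the root, stem, leaf and flower libraries, 1 library per tissue, with open symbols for 0 reads. dpr-miR167a lies between 389 and 1759 reads and nta-miR160a between 3.5 and 30, and no other member has more than 6.5 reads in any library.

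The family miR167 was highest in leaf and lowest in stem. The authors scaled each library by 1 factor, whose derivation is not given in the sources used here, and on that scale (normalised read count) the family summed to 1642 in flower (95% exact Poisson interval 1549 to 1739), 3360 in leaf (3205 to 3520), 529 in root (496 to 564) and 286 in stem (259 to 316). The 4 intervals did not overlap. Leaf held 57.8% of the summed normalised count, flower 28.2%, root 9.10% and stem 4.92%. The chi-squared test of the reads against the relative depths gave a p below the smallest number the software can hold, for the family and for dpr-miR167a alone.

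Differences of this kind were frequent in the table. Of 226 sequences with a whole read to test, 80 passed an adjusted p of 0.01 (Benjamini-Hochberg), or 35.4%, and of the 95 sequences with at least 10 reads 81.1% passed. Among the 9 member sequences 1 passed, dpr-miR167a, and 3 of the 9 had at least 10 reads.

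All 6 pairs of libraries differed for miR167 beyond counting error in exact binomial tests, adjusted over the 6 pairs. The leaf level was 2.05 times that of flower (exact 95% interval 1.90 to 2.20, adjusted p = 2.37e-82). It was 6.35 times that of root (5.87 to 6.87) and 11.8 times that of stem (10.5 to 13.1). Flower stood at 3.10 times the root level (2.85 to 3.38, adjusted p = 8.24e-147) and 5.75 times the stem level (5.12 to 6.45, adjusted p = 2.98e-238) by the same exact test. At the authors' scaling the smallest of the 6 ratios was that of root to stem, at 1.85 (1.65 to 2.09, exact binomial test, adjusted p = 8.39e-27).

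The order leaf, flower, root, stem held under every scaling tried, but its steps changed in size. Per 1000000 clean reads, miR167 came to 287 in flower, 329 in leaf, 109 in root and 60.8 in stem, and the ratio of leaf to flower shrank to 1.15 (1.06 to 1.24, exact binomial test, adjusted p = 0.000297). As a share of all miRNA reads it came to 0.236% in flower, 0.742% in leaf, 0.194% in root and 0.105% in stem, and flower then exceeded root by 1.22 times only (1.12 to 1.33, exact binomial test, adjusted p = 6.57e-06). miR166 and miR159 together made up 88.1% to 95.5% of the miRNA reads. Of the reads that remain without them, miR167 took 5.19% in flower, 14.1% in leaf, 1.63% in root and 1.32% in stem. The position of leaf at the top and stem at the bottom was thus shared by the 4 scalings, whereas the size of the step from leaf to flower was not.

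**Figure D2:**
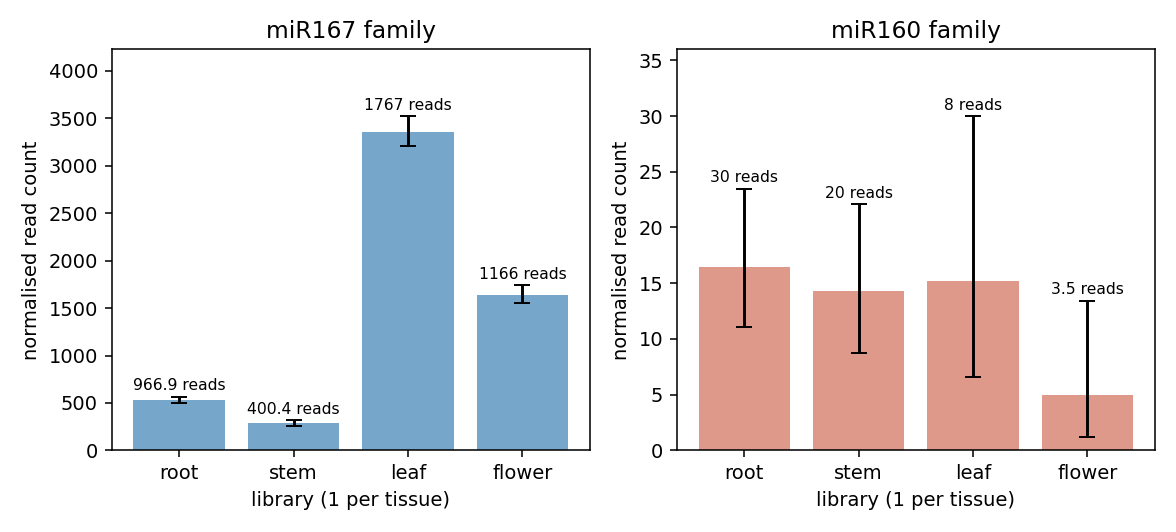
Normalised read count of the miR167 family (left) and the miR160 family (right) in each library, as bars with 95% exact Poisson intervals and the summed reads above each bar. miR167 rises from 286 in stem to 3360 in leaf with no overlap of intervals, and the miR160 intervals of all 4 libraries overlap.

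miR160 was scarce, and no difference between libraries passed the test at the authors' scaling. Its only sequence, nta-miR160a, had 3.5 reads in flower, 8 in leaf, 30 in root and 20 in stem. It was the 49th most abundant sequence, with place 78 in flower, 46 in leaf, 37 in root and 38 in stem. The normalised read counts were 4.93 in flower (1.19 to 13.4), 15.2 in leaf (6.57 to 29.98), 16.4 in root (11.1 to 23.4) and 14.3 in stem (8.73 to 22.1). Root, stem and leaf lay close together and flower was lowest, with overlapping intervals. The adjusted p over the 4 libraries was 0.346 (chi-squared test).

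None of the 6 pairs passed for miR160 either. With the flower reads rounded up to 4, the level in flower was 0.343 times that in root (exact interval 0.0879 to 0.974, adjusted p = 0.211). It was 0.394 times that in stem (0.0980 to 1.18, exact binomial test, adjusted p = 0.259). The ratio of leaf to root was 0.927, with an interval from 0.367 to 2.07, and that of root to stem 1.15, from 0.631 to 2.13. The intervals of the last 2 ratios include both lower and higher levels, so equal levels were not shown.

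The call for miR160 depended on the scaling. Flower was the lowest library in each of the 4. Per 1000000 miRNA reads, miR160 stood at 7.07 in flower, 33.6 in leaf, 60.1 in root and 52.6 in stem, and the adjusted p was 0.000567. On that scale, with the flower reads rounded up as before, flower was 0.135 times root (exact binomial test, adjusted p = 3.73e-05) and 0.154 times stem (adjusted p = 0.000285). The miRNA reads made up 12.2% of the clean reads in flower against 4.43% to 5.77% in the other libraries, a gap that moves with this result and whose part in it was not tested. Per 1000000 clean reads the values were 0.860 in flower, 1.49 in leaf, 3.39 in root and 3.04 in stem, with an adjusted p of 0.0570.

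**Figure D3:**
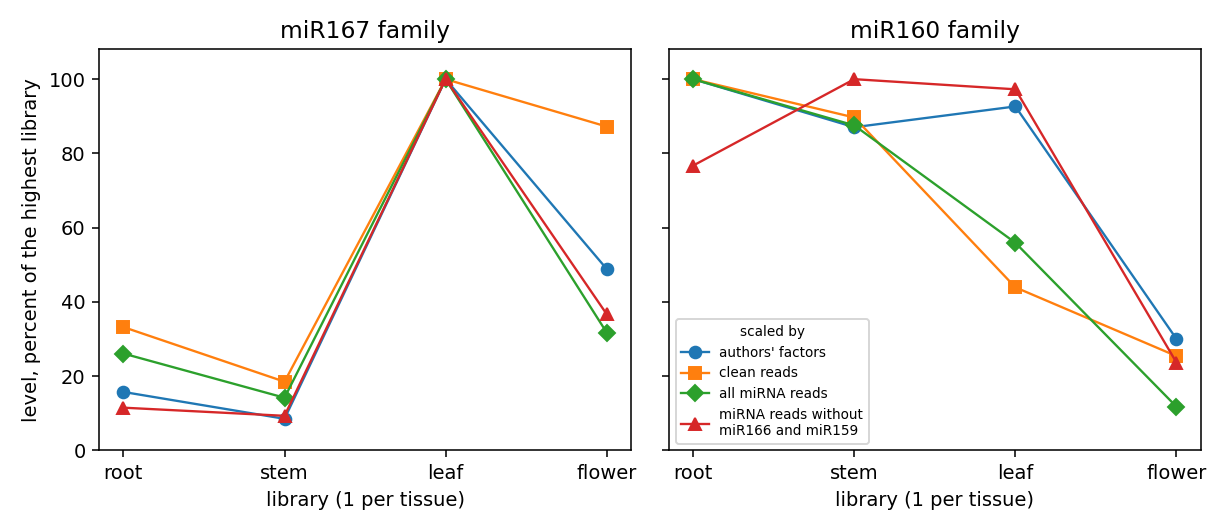
Level of miR167 (left) and miR160 (right) in each library as a percent of the highest library, under 4 scalings marked by symbol and colour, with lines only to guide the eye. miR167 peaks in leaf and is lowest in stem under all 4, and miR160 is lowest in flower under all 4 while root, stem and leaf change order.

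The balance between the families differed between libraries, and this ratio is free of any scaling because both counts come from the same library. There were 32.2 miR167 reads per miR160 read in root (exact interval 22.4 to 48.0), 20.02 in stem (12.8 to 33.1), 221 in leaf (112 to 512) and 333 in flower (114 to 1072). Leaf and flower lay above root and stem, with no overlap between the intervals of these pairs. Fisher's exact test over the 4 libraries gave p = 2.40e-14.

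By pairs, leaf differed from root (Fisher's exact test, adjusted p = 2.01e-07) and from stem (adjusted p = 1.19e-08). Flower likewise differed from root (exact test, adjusted p = 4.50e-07) and from stem (adjusted p = 2.04e-08). Leaf against flower (exact test, adjusted p = 0.773) and root against stem (adjusted p = 0.138) did not pass. The miR160 count is the limit here, since flower rests on 3.5 reads, rounded up for the interval and the tests, and leaf on 8.

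The 3p arm of miR167 was detected at low level in all 4 libraries and took its largest share in stem. It was carried by 2 sequences, ptc-miR167f-3p and ahy-miR167-3p_L+3, the second of which is the first with 3 more bases at its 5′ end. That extension moves the seed from GATCATG to TCAGATC. ptc-miR167f-3p had 1.25 reads in flower, 3 in leaf, 1.5 in root and 6.5 in stem. ahy-miR167-3p_L+3 had 0.560 reads in flower, 1.14 in leaf, 0.5 in root and 2.88 in stem. Both had most reads in stem, but as normalised counts leaf lay slightly above stem for each, with 5.70 against 4.65 for ptc-miR167f-3p and 2.17 against 2.06 for ahy-miR167-3p_L+3. Neither passed the exact multinomial test over the 4 libraries (adjusted p = 0.157 and 0.604), so the result for stem below is one of the share within miR167 and not of the level.

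To show where these 3p reads lie, the hairpin that the deposited table gives for dpr-miR167a, a foxglove precursor of 93 nt, is printed with the miRNA in capitals, followed by its bases 61 to 81 and by ptc-miR167f-3p, both with their differing bases in capitals.
dpr-MIR167a hairpin: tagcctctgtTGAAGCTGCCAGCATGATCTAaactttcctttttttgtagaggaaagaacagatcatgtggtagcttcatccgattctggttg
bases 61 to 81: agatcatgtggTagCttcaTc
ptc-miR167f-3p: agatcatgtggCagTttcaCc
In the structure given with the table, 19 of the 21 bases of dpr-miR167a are paired, with partners between bases 61 and 79, the stretch that ptc-miR167f-3p resembles. ptc-miR167f-3p matched 18 of the 21 bases of this window, with the substitutions T12C, C15T and T20C counted from the first base of the window. The hairpin is that of another plant: the file assigns all 44 member entries to reads that matched miRBase precursors and not *S. miltiorrhiza* transcripts, and no precursor of the sage itself was analysed here.

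Of the miR167 reads, the 3p share was 2.34% in stem (9.38 of 400.4 reads, exact Clopper-Pearson interval 1.03% to 4.23%). It was 0.207% in root (0.0251% to 0.745%), 0.234% in leaf (0.0617% to 0.579%) and 0.155% in flower (0.0208% to 0.618%). The stem interval lay above the other 3, which overlapped each other. Stem thus gave 54.1% of the 3p reads of the family but 9.13% of its 5p reads. Fisher's exact test over the 4 libraries gave p = 2.57e-05.

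Against stem, the adjusted p of Fisher's exact test was 0.000428 for leaf, 0.000428 for flower and 0.000891 for root. The other 3 pairs gave an adjusted p of 1. The result rests on 17.3 reads of the 3p arm. Whether the share in stem sets miR167 apart from other families was not tested. In 9 families, miR167 among them, the share of the arm with fewer reads was compared over the libraries. It was highest in stem for 4 of them, in root for 3 and in leaf for 2, so no 1 library led throughout. Besides miR167, those highest in stem were miR164, miR156 and miR168. Within miR164 the 3p arm held 11.3% of the reads in stem and 3.71% to 6.61% elsewhere. Within miR156 it held 8.56% in stem and 5.23% to 8.25% elsewhere, and within miR168 15.99% in stem and 10.99% to 15.88% elsewhere. For miR156 and miR168 the lead of stem was thus narrow.

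**Figure D4:**
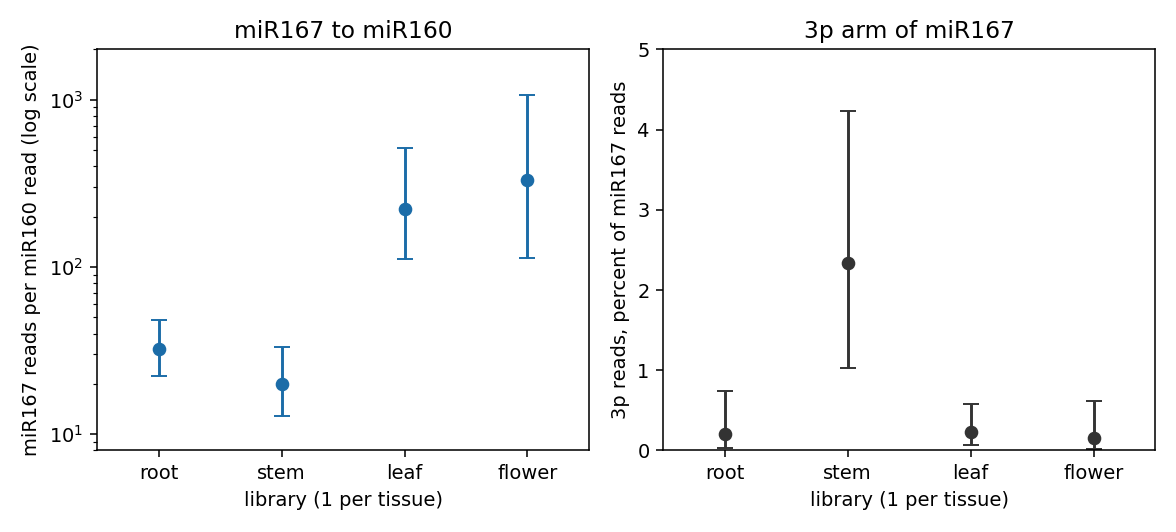
miR167 reads per miR160 read (left, log scale) and 3p reads as a percent of miR167 reads (right) in each library, as points with exact 95% intervals. The ratio is 20.02 to 32.2 in stem and root and 221 to 333 in leaf and flower, and the 3p share is 2.34% in stem and at most 0.234% elsewhere.

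Other miRNA families also act on auxin response, and a list of 6 was set beside each other: miR167, miR160, miR390 (which starts the tasiRNAs against ARF3 and ARF4), miR393 (which acts on the auxin receptors of the TIR1/AFB family), miR164 (which acts on NAC1, a transcription factor of lateral root growth) and miR847 (known from Arabidopsis, where it acts on the auxin repressor IAA28). The table held 5 of them and no entry named miR847. Reads of 4 of the 5 differed over the libraries at an adjusted p below 0.01 (chi-squared test), and miR160 was the exception. Of the 70 families tested, whatever their number of reads, 50% passed. The families of the list had at least 61.5 reads each, and of the sequences with at least 10 reads 81.1% passed. The share in the list is thus not read as an excess. Their highest libraries were leaf for miR167, flower for miR390 and miR393, and root for miR164.

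miR390 had normalised counts of 556 in flower, 27.3 in leaf, 19.4 in root and 48.0 in stem. miR393 had 1460 in flower, 280 in leaf, 7.11 in root and 75.0 in stem. miR164 had 1363 in flower, 185 in leaf, 5457 in root and 139 in stem. miR167 was thus the most abundant family of the list in stem, leaf and flower, and in root it stood second to miR164. In leaf it exceeded the next family, miR393, with 3360 against 280. In flower its lead over miR393 was small, at 1642 (1549 to 1739) against 1460 (1372 to 1551). These intervals overlap, and the 2 families were not tested against each other. miR160 was the least abundant in stem, leaf and flower, whereas in root miR393 was lower still. miR390, the other route to auxin response factors, exceeded miR160 most in flower, with 394.5 reads against 3.5.

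**Figure D5:**
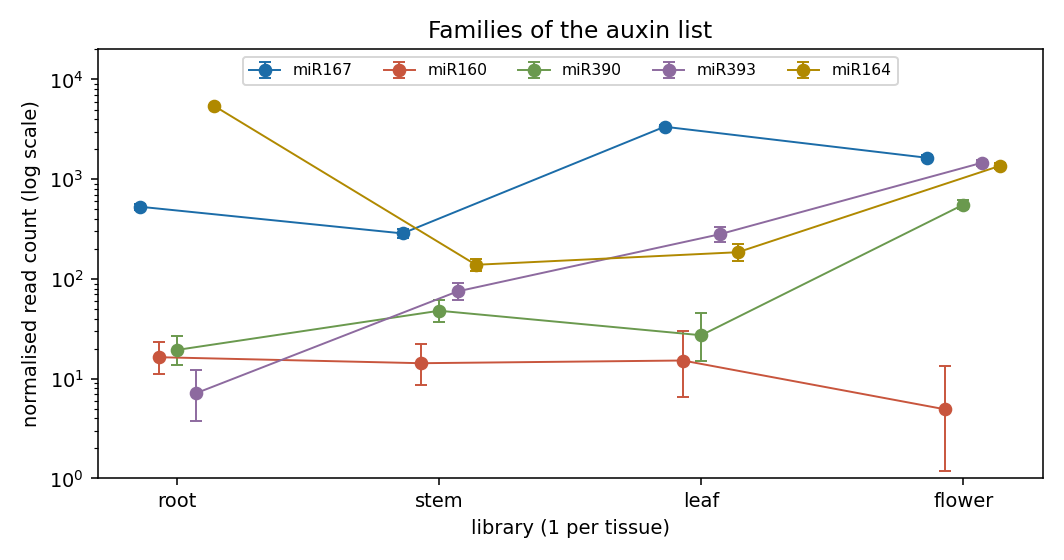
Normalised read count (log scale) of the 5 families of the auxin list in each library, as points with 95% exact Poisson intervals, with lines only to join the points of a family. miR167 is highest in leaf at 3360, miR390 and miR393 are highest in flower at 556 and 1460, miR164 in root at 5457, and miR160 stays at 16.4 or below.

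As a description with no test, the likeness of other families to miR167 was measured by the SD over the 4 libraries of the log2 ratio of reads (1 added to both). Among 27 other families with at least 100 reads the nearest were miR408 (SD 0.39), miR398 (SD 0.79) and miR166 (SD 1.17), against a median SD of 1.81. miR408 and miR398 are known in Arabidopsis as regulators of copper proteins. miR408 had 71.3 reads in flower, 129 in leaf, 42.8 in root and 15.5 in stem, and miR167 exceeded it by 13.7 to 25.9 times across the 4 libraries. miR398 had 55.3 reads in flower, 53.7 in leaf, 11.7 in root and 12 in stem. For miR160 the nearest of 28 families were miR159 (SD 0.55), miR396 (SD 0.61) and miR172 (SD 0.66), with a median SD of 1.30. The SD between miR167 and miR160 themselves was 1.88, above both medians. With 4 points that share their libraries, these values order the families and carry no p.

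The degradome table listed no cut transcript for either family. Of its 82 pairs of a small RNA and a target, which cover 25 small RNA names, 0 named miR167 or miR160 and 0 carried any of the 9 member sequences. The other families of the list had 6 pairs for miR164 and 0 for miR390 and miR393. Pairs were rare for other small RNAs too. The 25 names with a pair stand against 488 names in the miRNA table. Of the 10 sequences more abundant than dpr-miR167a, 1 had a pair. The paper likewise reports no cleavage signature for most miRNAs. The count of 0 for miR167 and miR160 is thus not read as a trait of these families. The degradome table holds called pairs only, so it sets no upper limit on the cutting of auxin response factor transcripts in these plants.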

How the data were processed

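Small RNA libraries of root, stem, leaf and flower (1 each) and a degradome library of mixed tissues were grouped by their labels. Per the labels, the authors used ACGT101-miR 4.2 for the small RNAs, and CleaveLand 3.0 with ACGT301-DGE 1.0 for the degradome. The deposited reads per entry are an estimated count, because the authors divided a read matching several entries over them. The deposited normalised values are a signal: the authors multiplied the reads of each library by a constant factor. The deposited degradome table gives raw reads as a count per cut site, a divided signal, an alignment score and a p-value, of which only names and sequences were used here. The miRNA reads of the table summed to between 238148 and 499434 per library, with 140 to 162 sequences detected. Columns of entry properties were used as deposited (length, GC percent, folding energy as other values), and 9 lines of the miRNA table were empty.

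Reads were summed per distinct sequence and per family. They were rounded to whole numbers for the tests, for the ratios between pairs of libraries, and for the intervals of ratios and shares. Levels, their Poisson intervals, and the ratios and shares within a library use unrounded reads. Relative depths were taken as the inverse of those factors. Departures of the reads from them were tested by chi-squared, or by an exact multinomial test for expected counts under 5. The p-values were adjusted by Benjamini-Hochberg, with a threshold of 0.01. For a family, its sum replaced its sequences among the 210 units adjusted together. Pairs of libraries were compared by exact binomial tests, and shares within libraries by Fisher's exact test, all two-sided. Intervals are exact at 95%. Reads from PCR carry no molecular identifiers, so intervals cover counting error only. Python 3 with scipy was used, and the tests were tested on simulated data. Alternatives were other scalings (clean reads as stated by the study, all miRNA reads, miRNA reads without miR166 and miR159), rounding down, and the dominant sequence alone. For the number of sequences past the test they included names in place of sequences, a minimum of 10 reads and no adjustment. Named were all member sequences, the auxin list and the 3 families nearest to each member family. miR156, miR168, and the arms of miR164, were picked once their values had been seen. The members, lists and tests were chosen with earlier results of these data known.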

Additional observations from a re-analysis of the deposited data

How the results depend on the processing

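The 5 alternatives for miR167 over the 4 libraries and the 30 for its pairs kept direction and side of the threshold, as did the 2 each for the ratio to miR160 and for the 3p share. A change of scaling moves all sequences alike, at most by 1.36 on the log2 scale, between flower and stem. For miR160, scaling by all miRNA reads took the adjusted p over the 4 libraries from 0.346 to 0.000567, the ratio of flower to root from 0.343 to 0.135 and that of flower to stem from 0.394 to 0.154, both past the threshold. The direction of miR160 pairs that pass no test turned for leaf against stem (1.06, against 0.490 by clean reads, 0.639 by all miRNA reads and 0.973 without miR166 and miR159), and without miR166 and miR159 for leaf against root (0.927 to 1.27) and root against stem (1.15 to 0.767). The cause was not tested. The number of sequences past the test was 80. It was 77 with at least 10 reads, 86 with no adjustment, 79 by clean reads and 77 by all miRNA reads. With names counted in place of sequences, 87 names passed.

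No paired analysis was possible because each tissue has 1 library, and for the same reason no leaving out of a replicate was run. Differences between plants cannot be told apart from differences between tissues. Depth limits miR160 (61.5 reads), the 3p arm (17.3 reads) and the minor 5p forms (under 4 reads each).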
